A study of Mus musculus with 7 samples.

Results

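The 7 genes described here encode the enzymes that write, copy and remove DNA methylation: the erasers Tet1, Tet2 and Tet3, the writers Dnmt3a and Dnmt3b, and the maintenance pair Dnmt1 and Uhrf1. They are 7 of the 27998 genes in the deposited matrices. They were chosen by symbol, with the difference of old from young adipose progenitors already known, Tet1 first. Their values in progenitors are therefore given as a description, with no test, and tests by age are given only in the other cell classes. The study profiled the stromal vascular fraction, the non-adipocyte cells released by collagenase digestion, of inguinal subcutaneous fat from female C57BL/6N mice. Old mice, of 18 months, gave 3 libraries, and young mice, of 11 to 12 weeks, gave 4 libraries. No allele or agent is named for either age. Each library is a single-cell 3' v3 library from 10x Genomics, in which each RNA molecule is counted by its unique molecular identifier (UMI). Whether a library holds cells of 1 mouse or of several is not given in the labels, so the p-values measure the spread between these libraries, part of which may be technical.

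DNA methylation in mammals sits mainly on cytosines of CpG dinucleotides. DNMT3A and DNMT3B add new marks, whereas UHRF1 binds half-methylated DNA behind the replication fork and recruits DNMT1, which copies the pattern to the new strand. TET1, TET2 and TET3 oxidise methylcytosine, which leads to loss of the mark through dilution at replication or through excision by TDG and base repair. Adipose progenitors are the fibroblast-like cells of fat that can give rise to adipocytes.

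The 7 libraries held 45514 barcodes, of which 37372 cells were kept, and between 52336665 and 99516882 UMIs each. The median depth was 5970 to 7955 UMIs per kept cell in the old libraries and 9259 to 13782 in the young ones. Pairs of libraries shared 4 to 23 cell barcodes. Clustering gave 42 clusters, of which 31 were named from marker genes, and 3694 kept cells stayed unnamed. Cells of the progenitor class carried 39994 to 55818 CPM (UMIs of a gene scaled to a common library total) of the 7 progenitor markers (among them Pdgfra, Dcn and Lum) in old libraries and 41350 to 44286 CPM in young libraries. Mammary epithelium, which lies within this fat depot in females, and Schwann cells were also present. Old replicate 3 was often the lowest library: it had the lowest TMM-scaled level of all libraries in 45 of the 63 pairs of member and class that could be tested, and in 46 of 63 on unscaled CPM. How often it was lowest over all genes was not counted, so this is not shown to be particular to the 7 genes. The cause was not tested.

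Coordinates are those of mouse build GRCm38 and span the whole gene. Tet1 lies on the minus strand at chr10:62804570-62908996, Tet2 on the minus strand at chr3:133463679-133545139 and Tet3 on the minus strand at chr6:83362373-83459084. Dnmt3a lies on the plus strand at chr12:3806007-3914443 and Dnmt3b on the plus strand at chr2:153649450-153687730. Dnmt1 lies on the minus strand at chr9:20907209-20959888 and Uhrf1 on the plus strand at chr17:56303321-56323486. Dnmt3a and Dnmt3b are each overlapped by an antisense gene, Dnmt3aos and Dnmt3bos. The antisense features held few UMIs, for example 9 for Dnmt3aos against 8170 for Dnmt3a in progenitors and 84 against 4230 in macrophages. The strand setting of the counting is not given in the sources used here. A fold change below is a log2 difference of old over young on TMM-scaled UMI sums, that is, sums per library and class scaled for depth and composition.

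Tet1, the TET enzyme best known from embryonic stem cells and early development, was lower in the progenitors of every old library than in those of any young library. TMM-scaled Tet1 was 3.58, 3.92 and 2.75 CPM in old replicates 1, 2 and 3, against 14.2, 11.4, 13.9 and 14.0 CPM in young replicates 1, 2, 3 and 4. These values rest on 90, 79 and 28 UMIs in the old libraries, against 235, 605, 353 and 595 UMIs in the young ones. The highest old library thus stood below the lowest young library by more than the spread within either age. The mean was 3.42 ± 0.604 CPM in old progenitors (SD, n = 3) and 13.4 ± 1.32 CPM in young progenitors (SD, n = 4). On the log2 scale the difference was -1.95 (SE 0.194). Over all 13931 genes measured in progenitors, 1.84% passed the test of age in either direction, and the ages did not overlap for 17.6%. Since this contrast chose the genes, nothing is read from those shares. In bulk sums of a class, a lower share of cells with the RNA and less RNA per cell cannot be told apart.

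The share of progenitors with at least 1 Tet1 UMI was 3.84% over the old libraries and 17.3% over the young ones. Old progenitors were shallower, with a median of 11192 UMIs per cell against 17430 in young progenitors, so each cell was also thinned to 3000 UMIs. After thinning, 1.00% of 4294 old cells and 3.55% of 7009 young cells kept a Tet1 UMI, with 180 old and 466 young cells left out as too shallow. Free RNA in droplets can give stray UMIs in cells that do not express a gene. For comparison, 0.146% of B cells (median depth 4290 UMIs in old and 4903 in young libraries) and 0.659% of macrophages (7856 and 8722 UMIs) had a Tet1 UMI. Both progenitor shares lay above these. Markers of the other cell types with much Tet1 were scarce in progenitors at both ages. The 5 basal epithelial markers summed to 1.76 to 8.0 CPM in old and 2.36 to 16.6 CPM in young progenitors, and the 6 Schwann markers to 22.9 to 39.6 CPM in old and 36.4 to 79.3 CPM in young progenitors, with none of them at 0. Their part in the difference was not tested.

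The progenitor class is made of 5 clusters whose shares differ between the ages, so Tet1 was also described within each. The cluster led by Gsn, Ccl11 and Mmp3 held 51.3% of old and 11.2% of young progenitors. The cluster led by collagen genes with Scg3 held 3.49% of old and 36.6% of young progenitors. The other clusters were one led by Pi16, Igfbp5 and Clec3b (18.9% of old, 28.4% of young), one led by collagen genes with Inmt (22.6% of old, 19.96% of young) and one led by Myoc and Sfrp4 (3.73% of old, 3.83% of young).

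**Figure D1:**
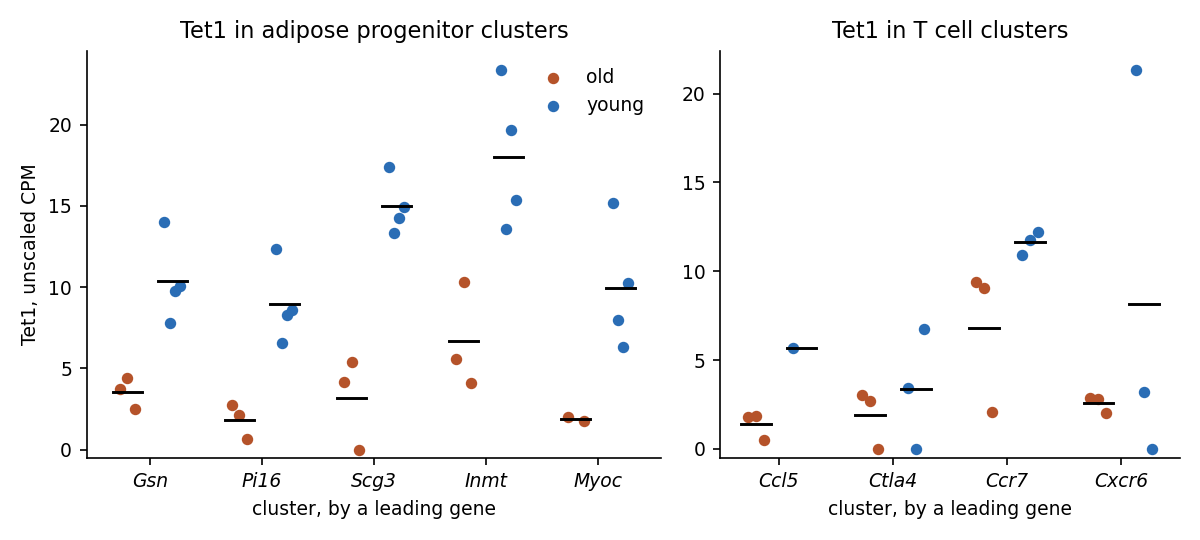
Tet1 in the clusters of progenitors (left) and T cells (right), named by a leading gene; the vertical axis is unscaled CPM, each point is a library with at least 20 cells of the cluster, brown for old and blue for young, and black bars are means. In each of the 5 progenitor clusters all old points lie below all young points.

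Tet1 was lower in old than in young libraries in each of the 5 clusters, and in none did the ages overlap. The share of all genes without overlap was not counted in single clusters. All 5 come from the same libraries and from the contrast that chose Tet1, so they are not separate results. In the Gsn cluster it averaged 3.41 CPM in old and 10.6 CPM in young libraries (log2 fold change -1.62, SE 0.279), and in the Pi16 cluster 1.81 CPM in old and 8.90 CPM in young libraries (-2.06, SE 0.358). In the Scg3 cluster the means were 3.10 CPM in old and 15.0 CPM in young libraries (-1.94, SE 0.390), where the old libraries held only 5, 8 and 0 UMIs. The Inmt cluster had the highest Tet1 mean of the 5 at both ages, 6.71 CPM in old and 17.6 CPM in young libraries (-1.43, SE 0.297). In the Myoc cluster, where 2 old libraries had enough cells, the means were 1.85 CPM in old and 10.1 CPM in young libraries (-2.40, SE 0.569). Within the clusters the log2 fold changes thus lay between -2.40 and -1.43, around that of the whole class. These single-cluster fits were added after the data were seen.

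The other erasers differed less in progenitors. Tet2, an eraser often mutated in blood cancers, had 32.7, 34.2 and 18.1 CPM in old replicates 1, 2 and 3, against 36.1, 36.8, 38.2 and 41.1 CPM in young replicates 1, 2, 3 and 4 (log2 fold change -0.42, SE 0.216). The ages did not overlap, although old replicates 1 and 2 lay close to the lowest young library. Tet3, the eraser best known from the zygote and from neurons, averaged 31.3 ± 8.14 CPM in old and 40.9 ± 9.44 CPM in young progenitors (-0.39, SE 0.243), and the ages overlapped. Much of both differences came with old replicate 3: without it the log2 fold change was -0.18 for Tet2 and -0.19 for Tet3, whereas that of Tet1 was -1.83.

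Of the writers, Dnmt3a, the main de novo methyltransferase of somatic cells, had 30.1, 33.5 and 24.7 CPM in old replicates 1, 2 and 3, against 30.4, 40.5, 62.2 and 52.9 CPM in young replicates 1, 2, 3 and 4. Its log2 fold change was -0.66 (SE 0.247), with young replicate 1 inside the old range. Dnmt3b, a writer used chiefly in the embryo, averaged 3.34 ± 1.20 CPM in old and 3.74 ± 0.350 CPM in young progenitors. The maintenance genes did not differ beyond their spread: Dnmt1 averaged 15.8 ± 6.00 CPM in old and 15.9 ± 1.20 CPM in young progenitors, and Uhrf1 averaged 1.4 ± 0.539 CPM in old and 1.35 ± 1.25 CPM in young progenitors. For both, old replicates 1 and 2 stood above 3 of the 4 young libraries or more. Old replicate 3 was below all young libraries for Dnmt1 and within their range for Uhrf1. Without old replicate 3 the log2 fold change was 0.26 for Dnmt1, 0.36 for Uhrf1 and 0.11 for Dnmt3b, and stayed below 0, at -0.55, for Dnmt3a.

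Levels across classes are given as unscaled CPM, the mean over the libraries of both ages with at least 20 cells of the class, and are a description. Tet1 ranged from no UMI in some classes to a clear level in Schwann and basal cells. Schwann cells, the glia of peripheral nerves, had 21.5 ± 2.08 CPM (SD, n = 3 young libraries) and basal epithelial cells, the contractile outer layer of the mammary duct, 19.0 ± 10.8 CPM (n = 6 of both ages). In young libraries alone basal cells averaged 27.4 ± 8.37 CPM of Tet1 (n = 3), above the Schwann cells, which reached 20 cells in young libraries only. Next came mural cells, which wrap blood vessels, with 9.66 ± 6.92 CPM and progenitors with 9.17 ± 5.56 CPM (n = 7 each). T cells followed with 6.12 ± 3.84 CPM and luminal epithelial cells with 4.95 ± 2.87 CPM (n = 7 each). From the basal class down to the luminal class, the SD ranges of neighbours in this order overlapped, but these SDs hold libraries of both ages. Mast cells averaged 11.5 CPM, but from 5 UMIs in all.

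Tet1 was low in the endothelium and in most blood cells. Blood endothelial cells had 2.51 ± 2.06 CPM, natural killer cells 1.76 ± 2.38 CPM, dendritic cells 0.960 ± 1.28 CPM, macrophages 0.837 ± 0.804 CPM and B cells 0.286 ± 0.433 CPM (n = 7 each). No Tet1 UMI was counted in monocytes, neutrophils, plasma cells or adipocytes. The adipocyte cluster was shallow, with a median of 778 UMIs in 174 cells (doublets included), in a fraction described as non-adipocyte. Whether it holds whole cells was not tested. At these depths a count of 0 allows up to 0.818 CPM in monocytes, 1.60 CPM in plasma cells, 4.24 CPM in neutrophils and 11.2 CPM in adipocytes (3 counts over the class). Such limits, and the intervals below, cover counting error only. Among lymphocytes, Tet1 was thus counted in 96 of 4360 T cells (2.20%, exact 95% interval 1.79% to 2.68%) but in 3 of 2059 B cells (0.146%, 0.0301% to 0.425%).

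**Figure D2:**
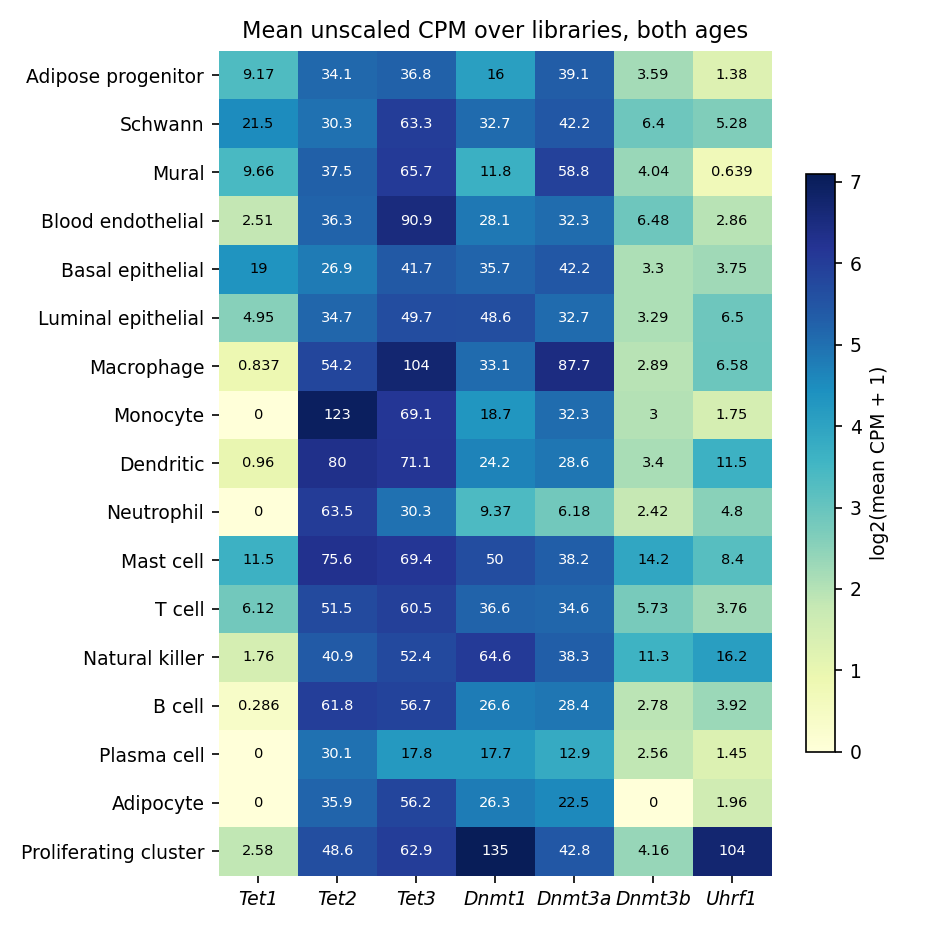
Level of each of the 7 genes in 17 cell classes; colour is log2(mean CPM + 1) and the printed number is the mean unscaled CPM over libraries of both ages with at least 20 cells. Tet1 is at 0 in monocytes, neutrophils, plasma cells and adipocytes, while Dnmt1 and Uhrf1 peak in the proliferating cluster at 135 and 104 CPM.

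Outside progenitors Tet1 could be tested by age in 4 classes, and it passed the threshold of an adjusted p below 0.05 in none. It was lower in old libraries without overlap in T cells, basal epithelial cells and blood endothelial cells. In luminal epithelial cells the ages overlapped and the old mean was the higher one. Adjusted p-values are from edgeR's quasi-likelihood test with Benjamini-Hochberg adjustment over all genes of a class.

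In T cells, scaled Tet1 was 3.17, 2.29 and 1.11 CPM in old replicates 1, 2 and 3, against 8.84, 6.46, 11.1 and 10.6 CPM in young replicates 1, 2, 3 and 4. The mean was 2.19 ± 1.03 CPM in old and 9.24 ± 2.08 CPM in young T cells, from 43 and 65 UMIs, a log2 fold change of -2.07 (SE 0.437) with an edgeR adjusted p of 0.112. DESeq2 put the adjusted p at 0.00904, and edgeR with no filter on low counts at 0.0074, so that the call depends on the method. In this class 0.192% of 9881 genes passed and 7.81% did not overlap between the ages. Different clusters held most T cells at each age: a cluster led by Ccl5 and Nkg7 held 39.2% of old and 10.9% of young T cells, one led by Cd3g and Ctla4 35.8% of old and 16.3% of young, and one led by Ccr7 and Lef1, genes of resting T cells, 18.7% of old and 59.0% of young. Within the Ccr7 cluster the means were 6.21 CPM in old and 12.4 CPM in young libraries (-1.18, SE 0.5, edgeR adjusted p = 0.549, 3 libraries an age). In the Ctla4 cluster and in a small cluster with Cxcr6, Tet1 did not pass the filter on low counts, and on unscaled CPM the ages overlapped. The Ccl5 cluster, with 111 young cells in all, had too few young libraries of at least 20 cells and was not fitted. Progenitor markers in T cells summed to 154 to 633 CPM in old and 435 to 712 CPM in young libraries, and their part in the difference was not tested.

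In basal epithelial cells, scaled Tet1 was 8.55, 14.4 and 9.64 CPM in old replicates 1, 2 and 3, against 34.8, 29.1 and 20.6 CPM in young replicates 1, 3 and 4. Young replicate 2 held 1 basal cell and was left out. All old libraries lay below all young ones, with 16 UMIs in old and 325 in young cells (log2 fold change -1.43, SE 0.388, edgeR adjusted p = 0.167). In this class 0.465% of 7529 genes passed and 17.2% did not overlap. Luminal epithelial cells, the inner, milk-forming layer of the same ducts, had scaled Tet1 of 8.63, 4.79 and 3.36 CPM in old replicates 1, 2 and 3, against 7.93, 2.62, 4.70 and 1.80 CPM in young replicates 1, 2, 3 and 4 (0.39, SE 0.552, edgeR adjusted p = 0.726). In the luminal class 7.12% of 11625 genes passed. One luminal cluster, led by Wfdc18, Krt18 and Csn3, held 93.7% of old and 47.2% of young luminal cells. The other, led by Krt18, Prlr and Ptn, held the rest. The basal change minus the luminal change was -1.94 (SE 0.592) over the 6 libraries with both classes, with an edgeR adjusted p of 0.125, so that the layers were not shown to differ. That comparison was added after the data were seen.

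**Figure D3:**
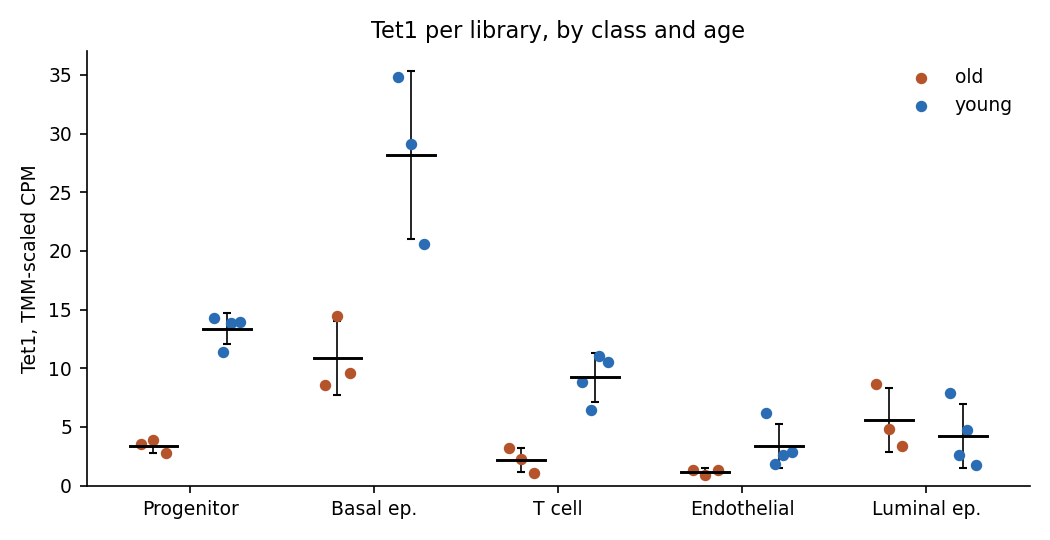
Tet1 in the 5 classes where it passed the filter on low counts; the vertical axis is TMM-scaled CPM, each point is a library, brown for old and blue for young, with the mean (bar) and SD (whisker). Old points lie below all young points in progenitors, basal epithelium, T cells and endothelium, and the ages overlap in luminal epithelium.

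In blood endothelial cells, scaled Tet1 was 1.36, 0.875 and 1.36 CPM in old replicates 1, 2 and 3, against 6.18, 1.89, 2.63 and 2.84 CPM in young replicates 1, 2, 3 and 4. The log2 fold change was -1.63 (SE 0.511, edgeR adjusted p = 0.265), and young replicate 1 stood well above the other young libraries. Here 0.146% of 11623 genes passed and 9.5% did not overlap. The cluster led by Gpihbp1 and Cldn5, genes of capillary endothelium, held 91.7% of old and 65.2% of young endothelial cells. Within it, Tet1 averaged 1.19 CPM in old and 2.52 CPM in young libraries (-1.13, SE 0.457, edgeR adjusted p = 0.519). A cluster led by Plvap and Aqp1 held 2.38% of old and 19.5% of young endothelial cells, and its Tet1 was 11.4, 3.68 and 5.88 unscaled CPM in young replicates 1, 2 and 4. In mural cells Tet1 had 6 UMIs in old and 83 in young libraries and did not pass the filter on low counts.

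Tet2 and Tet3 were counted in every class. Tet2 was highest in monocytes, with 123 ± 39.1 CPM (n = 6), and in dendritic cells, with 80.0 ± 27.8 CPM (n = 7), with overlapping SDs. B cells had 61.8 ± 23.9 CPM, macrophages 54.2 ± 11.1 CPM and T cells 51.5 ± 13.2 CPM. The stromal and epithelial classes were lower, with 34.1 ± 8.20 CPM in progenitors and 26.9 ± 10.2 CPM in basal cells, the lowest mean of all classes. Tet3 was highest in macrophages, with 104 ± 21.4 CPM, and in blood endothelium, with 90.9 ± 20.1 CPM (n = 7 each), which did not differ beyond their spread. Progenitors had 36.8 ± 9.38 CPM of Tet3, and plasma cells, with 17.8 ± 8.35 CPM (n = 3 old libraries), the least.

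By age, neither eraser passed the test in any of 11 classes outside progenitors. Tet2 was lower in old libraries in 9 of the 11 classes, with a median log2 fold change of -0.19 and a lowest edgeR adjusted p of 0.686. Tet3 was also lower in 9 of 11, with a median of -0.29 and a lowest edgeR adjusted p of 0.476. Without old replicate 3, Tet2 was lower in 4 and higher in 7 of the 11 classes (median 0.07) and Tet3 was lower in 7 and higher in 4 (median -0.15), so these counts rest on that library. For Tet3 the ages did not overlap in basal cells, where it averaged 32.3 ± 11.3 CPM in old and 54.0 ± 1.24 CPM in young libraries. For Tet2 they did not overlap in natural killer cells, with 34.0 ± 11.5 CPM in old and 48.2 ± 5.10 CPM in young libraries, nor in mast cells, where the old libraries held 4 UMIs. The ages did not overlap for 6.18% of genes in natural killer cells and for 29.7% in mast cells.

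Of the writers, Dnmt3a was highest in macrophages, with 87.7 ± 13.8 CPM, followed by mural cells, with 58.8 ± 24.5 CPM (n = 7 each). The next classes lay close together, from 42.8 ± 10.3 CPM in the proliferating cluster, through 42.2 ± 14.5 CPM in basal cells and 39.1 ± 12.995 CPM in progenitors, to 28.4 ± 9.29 CPM in B cells. Plasma cells had 12.9 ± 3.03 CPM and neutrophils 6.18 ± 6.06 CPM (n = 3 old libraries each). Dnmt3b was sparse in all classes. Natural killer cells had 11.3 ± 5.27 CPM and blood endothelium 6.48 ± 2.17 CPM, and their SDs overlapped. The mast cell mean of 14.2 CPM came from 5 UMIs.

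Dnmt3a was lower in old libraries in 9 of the 10 classes tested outside progenitors, with a median log2 fold change of -0.37, and passed in none. Without old replicate 3 Dnmt3a was lower in 6 of the 10 classes, with a median of -0.09. Its lowest edgeR adjusted p was 0.385, in luminal cells, where more genes passed than in any other class. The unadjusted edgeR p there was 0.143 (log2 fold change -0.36). It was lower in T cells (0.0208), basal cells (0.0282) and endothelium (0.0423). In basal cells it had 36.6, 37.9 and 19.3 CPM in old replicates 1, 2 and 3, against 52.1, 61.4 and 54.9 CPM in young replicates 1, 3 and 4 (-0.69, SE 0.269, edgeR adjusted p = 0.388). In T cells it averaged 26.0 ± 8.21 CPM in old and 41.0 ± 4.68 CPM in young libraries (-0.67, SE 0.249, edgeR adjusted p = 0.504). The ages did not overlap in these 2 classes. In endothelium, where they did, the means were 26.0 ± 7.84 CPM in old and 36.7 ± 3.85 CPM in young libraries (-0.50, SE 0.215, edgeR adjusted p = 0.489). That endothelial value was -0.75 without old replicate 2 and -0.33 without old replicate 3. In macrophages, where Dnmt3a was most abundant, it averaged 83.9 ± 11.4 CPM in old and 89.9 ± 10.1 CPM in young libraries (-0.10, SE 0.183). Dnmt3b was tested in 4 classes outside progenitors, lower in 3 and higher in T cells, where it averaged 6.42 ± 0.813 CPM in old and 5.22 ± 0.881 CPM in young libraries (0.28, SE 0.342, edgeR adjusted p = 0.914). Without old replicate 3, Dnmt3b was lower in 2 and higher in 2 of these classes.

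The maintenance pair was highest in dividing cells. Dnmt1 was highest in the cluster led by proliferation genes, with 135 ± 35.7 CPM, and Uhrf1 reached 104 ± 16.3 CPM there (n = 7 each). Natural killer cells came next for both, with 64.6 ± 20.6 CPM of Dnmt1 and 16.2 ± 11.4 CPM of Uhrf1, well below the proliferating cluster and beyond the spread. At the low end, progenitors had 16.0 ± 4.25 CPM of Dnmt1 and 1.38 ± 0.940 CPM of Uhrf1, and mural cells 11.8 ± 6.74 CPM of Dnmt1 and 0.639 ± 0.895 CPM of Uhrf1. The class with the highest mean was the same for all 7 genes when cells were thinned or doublets kept, among the 12 classes with at least 6 libraries.

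Cycling cells were then called in every class as those with at least 5 UMIs over at least 3 of 15 cell cycle genes, a list that holds none of the 7. These were 1465 of 37372 cells (3.92%), and 599 cells lay near the cut. The call rests on raw UMIs, so deeper cells reach it more easily. Dnmt1 averaged 73.7 ± 22.0 CPM in cycling cells and 22.5 ± 4.91 CPM in the other cells, and was higher in 7 of 7 libraries by 1.89-fold to 4.02-fold. Uhrf1 averaged 42.5 ± 19.9 CPM in cycling cells and 1.54 ± 0.544 CPM in the others, higher in 7 of 7 libraries by 14.6-fold to 40.2-fold. Cycling cells thus held 77.3% of all Uhrf1 UMIs and 31.3% of all Dnmt1 UMIs. The same direction held in each of the 8 classes with at least 20 cycling cells, with ratios of 1.25 to 4.81 for Dnmt1 and 6.83 to 36.9 for Uhrf1. In progenitors, for example, Uhrf1 was at 30.6 CPM in 72 cycling cells and 0.828 CPM in the other 11877 cells.

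The other members did not follow this pattern. Tet1 was lower in cycling cells in 7 of 7 libraries, with a median ratio of 0.55, but within classes it was higher in 3 of 8 and its median ratio was 0.98. In progenitors Tet1 was at 9.87 CPM in cycling and 10.2 CPM in other cells. The median ratios over libraries were 0.89 for Tet2, 1.03 for Tet3, 0.84 for Dnmt3a and 0.82 for Dnmt3b. Of 7 libraries, 2, 4, 2 and 0 in this order had the gene higher in cycling cells, so Dnmt3b was lower in all 7. Within the 8 classes, Tet2 was higher in cycling cells in 1, Tet3 in 3, Dnmt3a in 4 and Dnmt3b in 2. The median ratios within classes were 0.85, 0.87, 1.04 and 0.82.

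**Figure D4:**
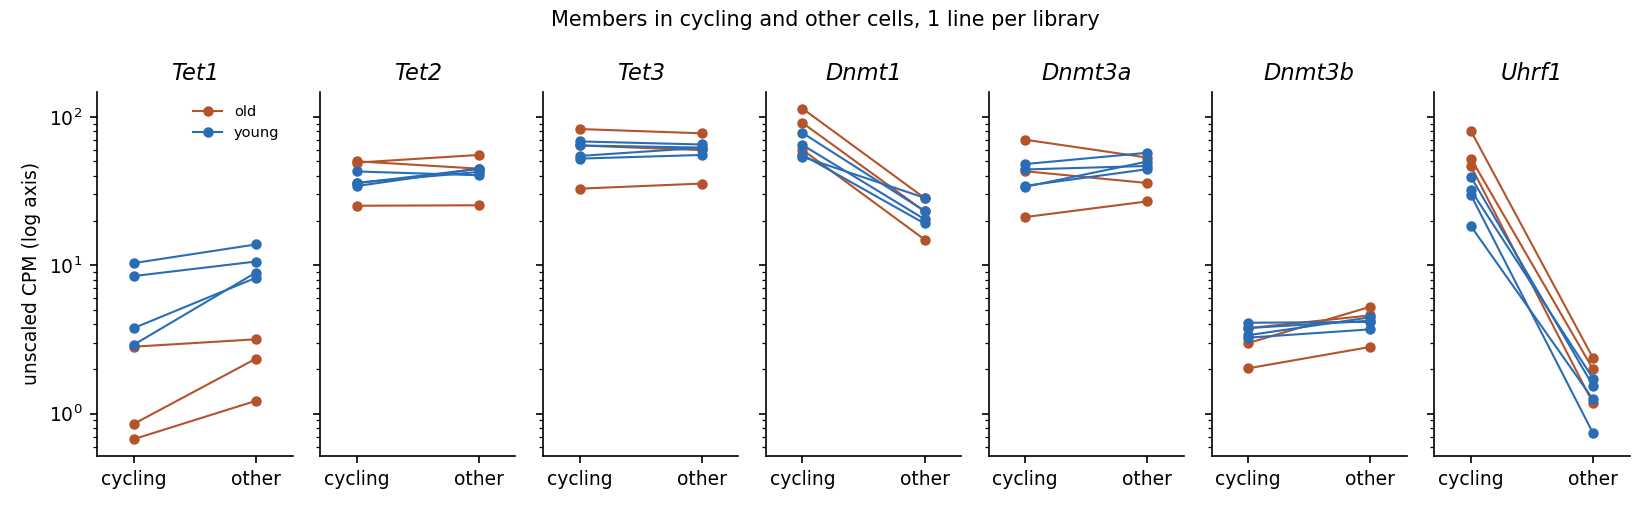
Level of each gene in cycling cells (left point) and other cells (right point) of each library, brown for old and blue for young; the vertical axis is unscaled CPM on a log scale. Dnmt1 and Uhrf1 are higher in cycling cells in all 7 libraries, Uhrf1 by 14.6-fold to 40.2-fold, and the points of Tet2, Tet3, Dnmt3a and Dnmt3b lie much closer together.

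The promoter windows of the pair are shown because both genes were higher in cycling cells in every library, beside that of Tet1, which was not. Each is the 250 bases before a transcription start in RefSeq, build GRCm38.p6, printed 5′ to 3′ on the gene's strand. Capitals mark a match, on either strand, to one of 4 spellings of the E2F consensus, TTTCCCGC, TTTGGCGC, TTTCGCGC or TTTGCCGC. E2F factors are known to switch on genes of DNA replication. The windows are chr9:20952624-20952873 (minus strand, the third of 3 Dnmt1 starts), chr17:56304063-56304312 (plus strand, the second of 2 Uhrf1 starts) and chr10:62887325-62887574 (minus strand, Tet1).
Dnmt1: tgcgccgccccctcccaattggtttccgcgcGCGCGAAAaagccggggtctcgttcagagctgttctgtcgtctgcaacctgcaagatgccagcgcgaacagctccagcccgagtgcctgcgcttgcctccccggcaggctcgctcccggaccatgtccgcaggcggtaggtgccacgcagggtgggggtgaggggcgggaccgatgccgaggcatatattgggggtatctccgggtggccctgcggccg
Uhrf1: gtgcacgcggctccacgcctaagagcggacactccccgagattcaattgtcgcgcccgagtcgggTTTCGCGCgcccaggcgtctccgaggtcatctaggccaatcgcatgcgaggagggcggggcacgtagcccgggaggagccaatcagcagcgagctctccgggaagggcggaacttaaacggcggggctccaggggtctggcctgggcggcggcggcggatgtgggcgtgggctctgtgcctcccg
Tet1: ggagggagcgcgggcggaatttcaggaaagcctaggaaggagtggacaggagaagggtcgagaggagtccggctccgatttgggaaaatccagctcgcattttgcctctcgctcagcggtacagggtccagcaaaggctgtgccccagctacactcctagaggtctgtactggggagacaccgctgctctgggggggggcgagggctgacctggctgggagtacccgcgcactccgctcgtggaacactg

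TTTCGCGC lay on the opposite strand 219 bases before the third Dnmt1 start and on the gene's own strand 185 bases before the second Uhrf1 start. All 7 genes matched the RefSeq table, with 12 windows, and these were the 2 windows with a match. Of all 32851 windows, 611 (1.86%) held one, and of all genes 583 of 27025 (2.16%) did. The Dnmt1 window held 26 CpG, the Uhrf1 window 30 and the Tet1 window 15, against a median of 6 over all windows. A match is a description of letters and not a site shown to be bound. For Dnmt1 and Uhrf1 the start shown is the one whose window held the match. Both of these windows lie downstream of the earlier starts listed for the same gene, and so inside the stretch that begins at those starts. Each window shown lies inside the gene span given above, and for Tet1 no window at the outer end of that span was scanned.

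By age, Dnmt1 passed in none of 10 classes outside progenitors. It was lower without overlap in old T cells, with 31.8, 33.0 and 23.2 CPM in old replicates 1, 2 and 3, against 37.6, 44.5, 49.5 and 37.0 CPM in young replicates 1, 2, 3 and 4 (-0.54, SE 0.219, edgeR adjusted p = 0.540). In dendritic cells the ages did not overlap either, with means of 19.96 ± 1.61 CPM in old and 27.1 ± 4.27 CPM in young libraries (-0.40, SE 0.230, edgeR adjusted p = 1.00). In the dendritic class 0.0216% of genes passed and 3.93% did not overlap. Uhrf1 was tested in 6 classes and passed in none. In natural killer cells it averaged 11.6 ± 12.1 CPM in old and 20.6 ± 11.6 CPM in young libraries, with wide overlap, and the share of cycling cells there was 1.96% to 6.00% in old and 6.32% to 15.9% in young libraries. That share was not corrected for depth.

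Uhrf1 in basal epithelial cells was outside the test, because it did not pass the filter on low counts. No UMI was counted in the 3 old libraries, against 69 UMIs in the young ones (21, 46 and 2 in young replicates 1, 3 and 4). Set against 3 counts over the old libraries together, the level was at least 3.48-fold lower in old basal cells. Without young replicate 3, which held 46 of the UMIs, this limit was 1.67-fold. Cycling cells made up 1.49% to 4.00% of old and 6.67% to 24.5% of young basal cells, and most of the young UMIs came from young replicate 3, the library with the highest of these shares. The shares were not corrected for depth, and deeper cells reach the call more easily. Old replicates 1, 2 and 3 held 844512, 566490 and 106866 UMIs in 64, 67 and 25 basal cells. Young replicates 1, 3 and 4 held 6497850, 3067704 and 465941 UMIs in 266, 94 and 30 basal cells. How far the share of cycling cells accounts for the count was not tested.

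In all, 56 pairs of member and class were tested outside progenitors and 0 passed by edgeR, with 7 at an unadjusted p below 0.05. DESeq2 called 1 (Tet1 in T cells). The log2 fold change was below 0 in 43 pairs and above 0 in 13, with a median of -0.27, and the ages did not overlap in 10 pairs. Without old replicate 3 it was below 0 in 32 and above 0 in 24 of the 56 pairs, with a median of -0.12, and 17 pairs changed sign. Tet1 was still lower in 3 of its 4 classes. Over all genes the median lay between -0.0549 and 0.0278 in these classes. The scaling holds that median near 0, so it is no background for the count of directions. The share of all genes without overlap ran from 3.93% in dendritic cells to 29.7% in mast cells. An unadjusted edgeR p below 0.05 was reached by 266 of 9268 genes in dendritic cells and by 2727 of 11625 in luminal cells. No result about the members is read from these counts. In 3 classes no gene at all passed (percent called 0 in mural, natural killer and mast cells). In the others not yet named, 0.189% of genes passed in macrophages, 0.0174% in monocytes and 0.929% in B cells.

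**Figure D5:**
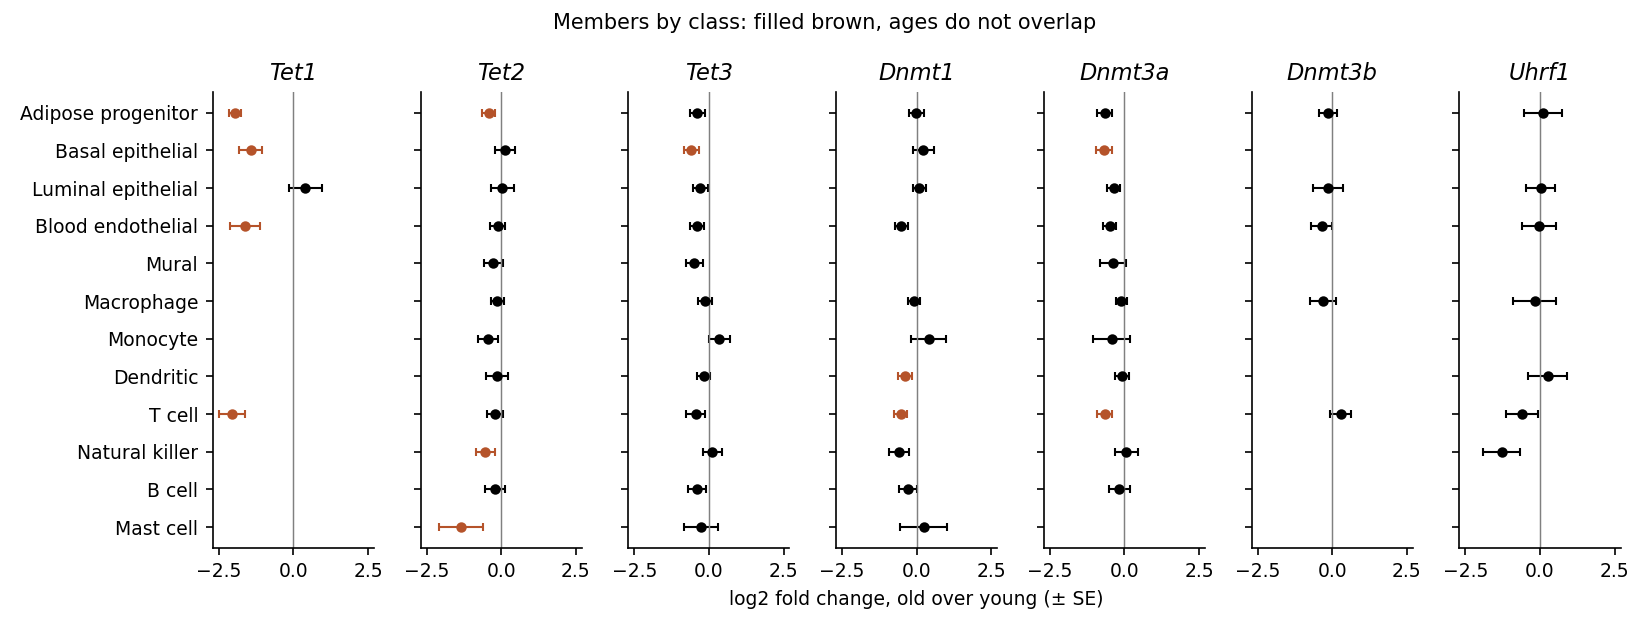
Log2 fold change of old over young (horizontal axis, point with its SE) for each gene, in rows of cell classes; brown points are pairs in which the ages do not overlap, and missing points did not pass the filter on low counts. Tet1 has the points farthest to the left, at -1.95 in progenitors and -2.07 in T cells, and most other points lie slightly left of 0 with old replicate 3 included.

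The wider pathway was covered by 6 lists of 64 genes in all, which gave 490 tested pairs of gene and class outside progenitors. None rose and 2 fell, both in old luminal epithelial cells and both from the list of base excision and completion of demethylation (13 listed, 12 tested in luminal cells, list median -0.04). Over all 11625 genes of the luminal class 7.12% passed, and the ages did not overlap for 20.9%. Tdg, which excises the oxidised bases that TET enzymes make, averaged 15.2 ± 1.15 CPM in old and 28.1 ± 6.59 CPM in young luminal cells (-0.88, SE 0.228, edgeR adjusted p = 0.0482) without overlap. Gadd45g, a stress-induced gene linked to active demethylation, averaged 141 ± 68.0 CPM in old and 730 ± 457 CPM in young luminal cells (-2.38, SE 0.611, edgeR adjusted p = 0.0465), and the ages overlapped. Both calls were lost when any 1 library other than young replicate 1 was left out, with adjusted p-values of up to 0.152 for Tdg and 0.192 for Gadd45g. The luminal class also differed in make-up, with the clusters given above, and its cycling share, not corrected for depth, was 9.43% to 18.5% in old and 21.2% to 45.7% in young libraries.

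In the other 5 lists no gene passed in any class outside progenitors. One gene of each list is given with its values, the one with the lowest p over all classes, progenitors included. The list medians in brackets leave progenitors out. Among partners of maintenance (7 genes, list medians by class from -0.16 to 0.61), Pcna, the clamp of the replication fork, averaged 81.9 ± 6.64 CPM in old and 41.7 ± 12.7 CPM in young progenitors. Among TET partners and suppliers of their cofactor (14 genes, -0.29 to 0.18), Idh3a, a subunit of the mitochondrial enzyme that makes 2-oxoglutarate, averaged 32.0 ± 2.84 CPM in old and 21 ± 1.47 CPM in young progenitors. For both, the ages did not overlap in progenitors, as for 17.6% of all genes there, and no test is given. In progenitors 3 maintenance partners were higher and 4 lower in old libraries (list median -0.06), and 10 TET partners were higher and 4 lower (0.15). Among readers of methyl-CpG (7 genes, -0.13 to 0.34), Zbtb38, a zinc finger protein that binds methylated DNA, averaged 74.4 ± 33.9 CPM in old and 23.0 ± 13.6 CPM in young B cells (edgeR adjusted p = 0.140). In the S-adenosylmethionine cycle (16 genes, 0.01 to 0.22), which supplies the methyl group, Amd1 averaged 75.3 ± 6.89 CPM in old and 36.9 ± 11.9 CPM in young basal cells (edgeR adjusted p = 0.179). Among partners of the writers (7 genes, -1.16 to 0.25), Ezh2, the histone methyltransferase of the Polycomb complex, averaged 19.7 ± 4.46 CPM in old and 32.6 ± 5.41 CPM in young natural killer cells (edgeR adjusted p = 0.976).

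Some genes had a pattern over the 17 classes close to that of a member, measured by Pearson's r of log2(mean CPM + 1) among 13491 genes and given as a description. Nearest to Tet1 were Tmem14a (0.91), the tyrosine kinase gene Src (0.91) and Pcgf1 (0.90), a Polycomb subunit. Among those close to Uhrf1 were Aunip and Hist1h2ag (0.89 each). Nearest to Dnmt1 were Rfc3 (0.91), a subunit of the clamp loader, Syce2 (0.89) and Cdca2 (0.88). For Tet2 they were BC049352 (0.88), Gpr141 and Naip6 (0.86 each), all highest in monocytes. For Dnmt3a they were Nudt16l1 (0.90), Gapvd1 and Ncoa5 (0.87 each), for Tet3 Itpripl1 (0.84), Ppp1r9b (0.83) and Tgs1 (0.80), and for Dnmt3b Inpp5b (0.88), Rfx3 (0.84) and Mon1b (0.83). The points share libraries and differ in depth between classes.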

How the data were processed

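Stromal vascular cells of inguinal fat were profiled in 3 old and 4 young libraries. The deposited files hold UMI counts per gene and barcode. The submitters' processing notes name Cell Ranger 4.0.0 and build mm10.

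A cell was kept if it had 500 UMIs or more, 300 genes or more and no more than 15% mitochondrial UMIs. The cells with the highest Scrublet doublet scores were left out as doublets. Their number (2.51% to 7.34% per library) was set beforehand from the count of barcodes. Leiden clusters (scanpy 1.11.5, leidenalg 0.10.2, 2000 variable genes, 30 components, resolution 1, no batch integration) were named from marker lists, with score limits set after seeing the data. UMIs were summed per library and class, with at least 20 cells, and tested with edgeR 4.0.16 (TMM, filterByExpr, quasi-likelihood, 2-sided, R 4.3.3), checked on simulated data. DESeq2 1.42.0 was an alternative. The 7 genes, the markers and the pathway lists were chosen with earlier results of these data known. All 7 genes are named in every class tested. Of each pathway list, up to 3 passing genes a class and direction are named, or the gene with the lowest p over all classes, progenitors included. Same-age libraries differed by more than sampling noise and were all kept. Replicate numbers did not pair the libraries. One gene with a pattern like that of a member is not reported here.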

Additional observations from a re-analysis of the deposited data

Results flagged for a closer look

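Among the 51 groups of 4 young libraries examined for a library far from the others, 3 held one (5.88%), and chance flags about 1 in 20 groups. Tet1 in progenitors was 11.4 CPM in young replicate 2, against 13.9 to 14.2 CPM in the other young libraries, a value still far above every old library. Uhrf1 in progenitors was 3.22 CPM in young replicate 3, against 0.610 to 0.904 CPM in the other young libraries, and that library also had the highest share of cycling progenitors, 2.68%, not corrected for depth. Dnmt1 in B cells was 34.8 CPM in young replicate 1, against 26.2 to 27.7 CPM in the other young libraries. The causes were not tested.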

How the results depend on the processing

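Alternatives were run for 21 results, those for progenitors as values with no test. No fold change by age among them turned its sign, but the cycling ratio of Tet2 was 1.00 with at least 10 UMIs, against 0.89. The count of members passing outside progenitors (0) was 1 with DESeq2 and 2 with no filter on low counts, namely Tet1 in T cells and Uhrf1 in basal cells. The count of passing pathway genes outside progenitors (2) was 1 with RLE size factors, 6 with DESeq2, 9 with no filter and 0 with at least 500 genes and at most 5% mitochondrial UMIs. Leaving out 1 library gave 0 to 7 (7 without young replicate 1, 1 without old replicate 3, 0 without any other). The causes were not tested. Tet1 in progenitors kept a log2 fold change of -2.05 to -1.83 when 1 library was left out. In single clusters, chosen after seeing the data, it was -1.62 (Gsn, SE 0.279), -1.43 (Inmt, SE 0.297), -2.40 (Myoc, SE 0.569), -2.06 (Pi16, SE 0.358) and -1.94 (Scg3, SE 0.390). The Gsn, Inmt and Myoc values lay farther from the class value than 0.205, the log2 SD between single libraries of an age. That SD is not the error of a cluster fold change, and whether the clusters differ was not tested. Tet1 in basal cells ranged from -1.76 to -1.14 without 1 library. Under the stricter cell filter it was -9.27, but old basal cells held only 16 Tet1 UMIs even before that filter. The size of that value is therefore not read as a fall. With the replicate number as a replicate block, Tet1 in progenitors was at -1.96, 0 members and 3 pathway genes passed, and the Tdg call was lost (edgeR adjusted p = 0.124). Same-numbered libraries correlated at -0.216 to 0.212, so the numbers are not taken to pair them. Tdg also missed the threshold with RLE size factors (0.0514), doublets kept (0.135) and the stricter filter (0.245), and Gadd45g with the stricter filter (0.355). Few UMIs limit Tet1, Dnmt3b and Uhrf1 in most classes, where the counts behind a fold change are small.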
